A study of Mus musculus with 6 samples.

Results

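The endoplasmic reticulum (ER) genes described here are 39 genes for protein folding in the ER and for the response to ER stress, out of 26887 genes and features tested. They were taken as the genes of a written list of ER chaperones, degradation factors, translocation factors and stress response genes whose RefSeq accession an array probe carries. The list was drawn up with earlier results of these arrays known. The study compared Jmjd2a-/- (KO) with Jmjd2a+/+ (WT) littermate female mice on a C57BL6 background, virgin and 8 weeks old. Jmjd2a, now named Kdm4a, encodes a demethylase of histone H3 lysines. All females, KO and WT alike, had been exposed to soiled bedding of a stud male, which activates oestrus (the Whitten effect), and the pituitary was taken 24 h later. RNA of 3 KO and 3 WT pituitaries, each from a separate animal, was measured on one-colour Agilent arrays. The labels do not state which stretch of Jmjd2a the null allele lacks.

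Proteins that a cell secretes enter the ER through the Sec61 channel as they are made. In the lumen chaperones hold them, isomerases set their disulphide and proline bonds, and lectin chaperones retain glycoproteins until they are folded. Proteins that fail are pulled back to the cytosol and degraded (ER-associated degradation). When unfolded proteins build up, the sensors Ire1 (Ern1), Perk (Eif2ak3) and Atf6 start the unfolded protein response: Ire1 splices the Xbp1 message, Atf6 is cut to release a transcription factor, and Perk slows translation and raises Atf4, which turns on Ddit3 (Chop) and amino acid genes. Pituitary hormone cells make large amounts of secreted hormone and depend on this machinery.

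All levels below are log2 signals of a probe relative to the 75th percentile of the spot signals on its array, and all log2 fold changes are KO over WT, each ± limma's standard error, from 3 KO and 3 WT arrays. The probe with the highest mean stood for each gene. All 39 genes were tested, and each of these probes was well above background on all 6 arrays. Between 34634 and 40567 probes per array lay well above background, and the number of arrays limits the precision of every value. Kdm4a itself read 1.45, 1.20 and 1.36 on KO arrays, against 2.14, 1.90 and 1.85 on WT arrays, so the groups did not overlap. Its log2 fold change was -0.62 ± 0.14, or 64.9% of the WT signal, with an adjusted p of 0.237 from limma and p = 0.1 from the exact two-sided permutation test, the smallest that 3 arrays against 3 allow. Since the deleted stretch is not known, this does not check the labels. The hormone genes Prl, Gh, Pomc, Lhb and Tshb were well above background on every array.

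The 39 ER genes showed no difference that passed correction over all genes, but they did not lie evenly around 0. The genes that fold proteins in the lumen read lower in KO pituitaries (15 of 16 genes, median log2 fold change -0.36) and the 5 translocation genes did too (5 of 5, median -0.27). The sensors, transcription factors and Perk and Atf4 targets lay mostly above 0 (9 of 11, median 0.17), and the 7 degradation genes lay on both sides (4 below 0, median -0.03). Over all 26887 genes and features the median was -0.08, and 61% lay below 0. Limma called 0 of the 39 genes at an adjusted p under 0.05 (lowest 0.311), as it called 0% of all genes and features. At an unadjusted p under 0.05 stood 8 of the 39 genes (20.5%), against 12.8% of all. Of these, 7 were lower in KO, where 8.92% of all genes and features stood, and 1 was higher, where 3.89% of all stood. The KO arrays lay wholly below the WT arrays for 8 of the 39 genes (20.5%), against 13.5% of all, and wholly above for 4 (10.3%), against 7.14% of all. The count of 8 genes at an unadjusted p under 0.05 depended on single arrays: it was 3, 5 and 2 without KO replicates 1, 2 and 3, and 16, 8 and 3 without WT replicates 1, 2 and 3. The share of all genes and features was then 9.11%, 8.03% and 7.32% without KO replicates 1, 2 and 3. It was 10.9%, 20.5% and 12.1% without WT replicates 1, 2 and 3. Without WT replicate 2 the 8 ER genes (20.5%) thus stood at the share of all. In whole glands, fewer cells of a type and less RNA per cell cannot be told apart.

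**Figure D1:**
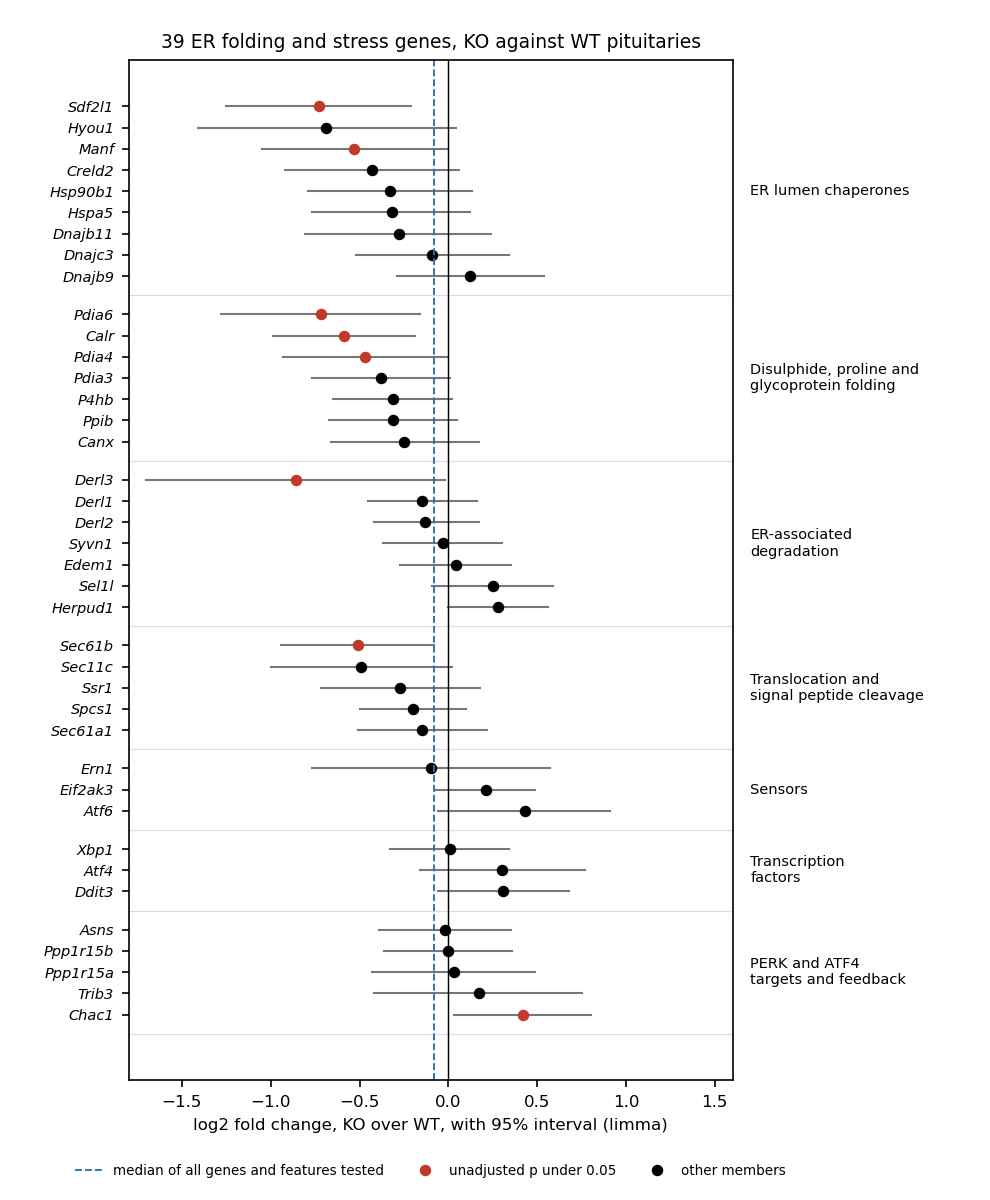
Log2 fold change, KO over WT, of each of the 39 ER genes with its 95% interval from limma, grouped by role; red points have an unadjusted p under 0.05 and the dashed line is the median of all genes and features tested (-0.08). The folding and translocation genes lie left of 0 except Dnajb9, and most sensors, factors and Perk and Atf4 targets lie at or right of 0.

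Many of these genes share short promoter motifs through which the stress response factors act, so the promoter windows were read first. RefSeq windows of 300 bases (250 before and 50 from the gene start on, GRCm38.p6) were at hand for 32 of the 39 genes. The ER stress response element, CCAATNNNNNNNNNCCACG on either strand, to which NF-Y and Atf6 bind, was present in 9 of these 32 genes (28.1%), against 0.137% of the 27025 genes with a window. Those 9 were Hspa5, Hsp90b1, Dnajc3, Creld2, Pdia6, Calr, Canx, Syvn1 and Derl3, and Hsp90b1 held it at 2 places. The shorter element ERSE-II, ATTGGNCCACG, was present in Dnajb11 and Herpud1, against 0.0444% of all genes. The Atf4 element TGATGNAA was present in Herpud1, Trib3, Chac1 and Asns (12.5%, against 4.51% of all genes). The core of the Xbp1 element, TGACGTGG, was found in 0 of the 32 windows, against 0.714% of all genes. The ER genes count among all genes here, and 9 of the 37 genes with the long element are ER genes. The 2 ER stress elements and the Atf4 element were taken as known motifs of this response. Their shares among the ER genes are therefore background and no result of these arrays. A match is a run of letters and was not tested for binding here. The stretches below carry the motif letters in capitals (on the opposite strand they read CGTGG and ATTGG for the long element and TTGCATCA for the Atf4 element; the short element in Herpud1 reads ATTGG and CCACG). They show the element in the main chaperone gene, in the members with the smallest p that hold one, and in Herpud1 and Chac1, which read higher in KO.
Hspa5, chr2:34772015-34772053, plus strand: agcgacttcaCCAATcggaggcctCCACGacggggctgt
Pdia6, chr12:17266481-17266519, plus strand: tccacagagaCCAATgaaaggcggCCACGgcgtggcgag
Calr, chr8:84847065-84847103, minus strand: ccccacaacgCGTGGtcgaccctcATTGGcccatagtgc
Derl3, chr10:75893232-75893270, plus strand: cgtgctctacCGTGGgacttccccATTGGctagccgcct
Creld2, chr15:88819510-88819548, plus strand: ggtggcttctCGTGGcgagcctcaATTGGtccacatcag
Herpud1, chr8:94386307-94386397, plus strand: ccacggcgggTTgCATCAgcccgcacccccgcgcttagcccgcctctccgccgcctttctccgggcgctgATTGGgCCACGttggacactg
Chac1, chr2:119351039-119351066, plus strand: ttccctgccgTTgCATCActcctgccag
The long element begins 65 bases before the annotated start in Hspa5, 98 in Pdia6, 162 in Calr, 156 in Derl3 and 126 in Creld2.

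**Figure D2:**
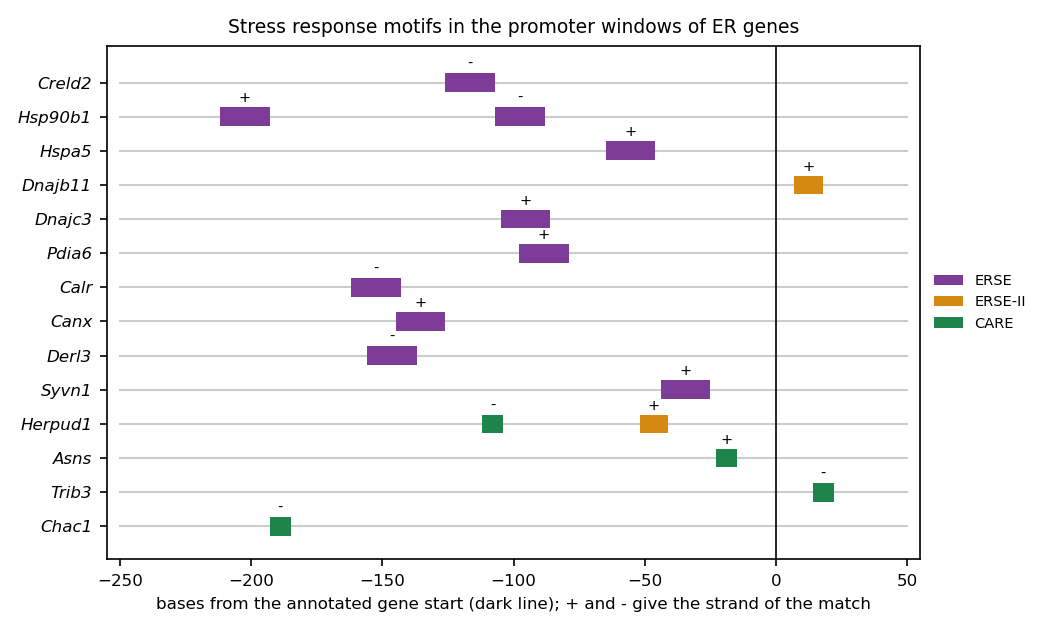
Position of each match to the long ER stress response element (ERSE), the short element (ERSE-II) and the Atf4 element (CARE) in the promoter windows of the ER genes, in bases from the annotated gene start. The long element lies upstream of the start in all 9 genes that hold it, while Dnajb11 and Trib3 hold their matches just after the start.

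Of the 9 lumen chaperones and their cofactors, 8 lay below 0, and the KO and WT arrays overlapped for all but Sdf2l1. Hspa5 encodes BiP, the Hsp70 of the ER, which also keeps the 3 sensors inactive. Hspa5 read 6.63, 6.86 and 6.57 on KO arrays, against 6.80, 6.86 and 7.37 on WT arrays. WT replicate 3 stood above the other arrays, while WT replicates 1 and 2 lay above KO replicates 1 and 3 and level with or below KO replicate 2. Its log2 fold change of -0.32 ± 0.19 had an adjusted p of 0.482 from limma. It shrank to -0.07 with quantile normalization, -0.11 in the authors' value table and -0.14 without WT replicate 3. Hsp90b1, which encodes the Hsp90 of the ER (Grp94), read 5.75, 5.92 and 5.72 on KO arrays, against 5.72, 6.32 and 6.35 on WT arrays. WT replicate 1 was thus as low as the KO arrays, and the log2 fold change was -0.33 ± 0.19 (adjusted p = 0.483, limma). For Hsp90b1 quantile normalization gave -0.16 and the authors' value table gave -0.18.

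Sdf2l1, whose product works with BiP and its ER J proteins, lay farthest from 0 among the chaperones and their cofactors. Sdf2l1 read 2.51, 2.83 and 2.57 on KO arrays, against 2.92, 3.49 and 3.70 on WT arrays. The groups did not overlap, the log2 fold change was -0.73 ± 0.22, and the KO signal was 60.3% of the WT signal (95% interval 42.1% to 86.3%). Its unadjusted p from limma was 0.0126 and its adjusted p 0.317. Manf, a secreted protein kept in the ER by BiP, read 4.41, 4.63 and 4.34 on KO arrays, against 4.52, 5.19 and 5.26 on WT arrays. WT replicate 1 lay among the KO values, and the log2 fold change of -0.53 ± 0.22 had an unadjusted p of 0.0478 and an adjusted p of 0.388 from limma. Of the 5 others, Hyou1 (the Hsp110-type exchange factor of BiP), Creld2, Dnajb11 and Dnajc3 (an ER J protein also known as p58IPK) had log2 fold changes of -0.69 ± 0.30, -0.43 ± 0.21, -0.28 ± 0.22 and -0.09 ± 0.18. Dnajb9 (ERdj4), a J protein that holds Ire1 inactive, was the only gene of the 16 folding genes above 0, at 0.12 ± 0.18. Its second probe gave -0.12 ± 0.19, so its probes disagree in sign.

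The disulphide, proline and glycoprotein folding genes formed the most uniform role: 7 of 7 lay below 0, the median log2 fold change was -0.38, and for 6 of them every KO array lay below every WT array, as for 13.5% of all genes and features. Calr encodes calreticulin, the soluble lectin chaperone of the ER. Calr read 4.69, 4.81 and 4.71 on KO arrays, against 5.03, 5.35 and 5.61 on WT arrays. The KO arrays lay within 0.11 of each other and below all WT arrays, the log2 fold change was -0.59 ± 0.17, and KO stood at 66.5% of WT (95% interval 50.4% to 87.8%). The unadjusted p of 0.0104 was the smallest of the 39 genes, with an adjusted p of 0.311 (limma). Pdia6, a disulphide isomerase that also acts on Ire1, read 5.95, 6.25 and 5.81 on KO arrays, against 6.38, 6.58 and 7.19 on WT arrays. Its log2 fold change was -0.72 ± 0.24 (60.9% of WT, unadjusted p = 0.0194 and adjusted p = 0.338 from limma), and its second probe gave -0.47 ± 0.24.

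Pdia4 (ERp72), another disulphide isomerase, read 2.11, 2.31 and 1.96 on KO arrays, against 2.37, 2.46 and 2.96 on WT arrays. The groups were separate, by 0.06 at the closest, and the log2 fold change was -0.47 ± 0.19 (unadjusted p = 0.0448, adjusted p = 0.381, limma), or -0.29 without WT replicate 3. P4hb, the main protein disulphide isomerase and a subunit of prolyl 4-hydroxylase, read 4.31, 4.47 and 4.43 on KO arrays, against 4.55, 4.67 and 4.93 on WT arrays. These groups did not overlap either, with a log2 fold change of -0.31 ± 0.14 and an adjusted p of 0.400 (limma). The KO arrays of Pdia3 (ERp57, the isomerase that works with the lectin chaperones) and Ppib (cyclophilin B, a proline isomerase) also lay below all WT arrays, at -0.38 ± 0.17 and -0.31 ± 0.15, but by only 0.01 and 0.04 at the closest. The KO and WT arrays of Canx (calnexin, the membrane-bound partner of calreticulin) overlapped, at -0.25 ± 0.18. For Canx quantile normalization gave -0.07 and the authors' value table gave -0.11, and without WT replicate 3 the difference was -0.08.

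**Figure D3:**
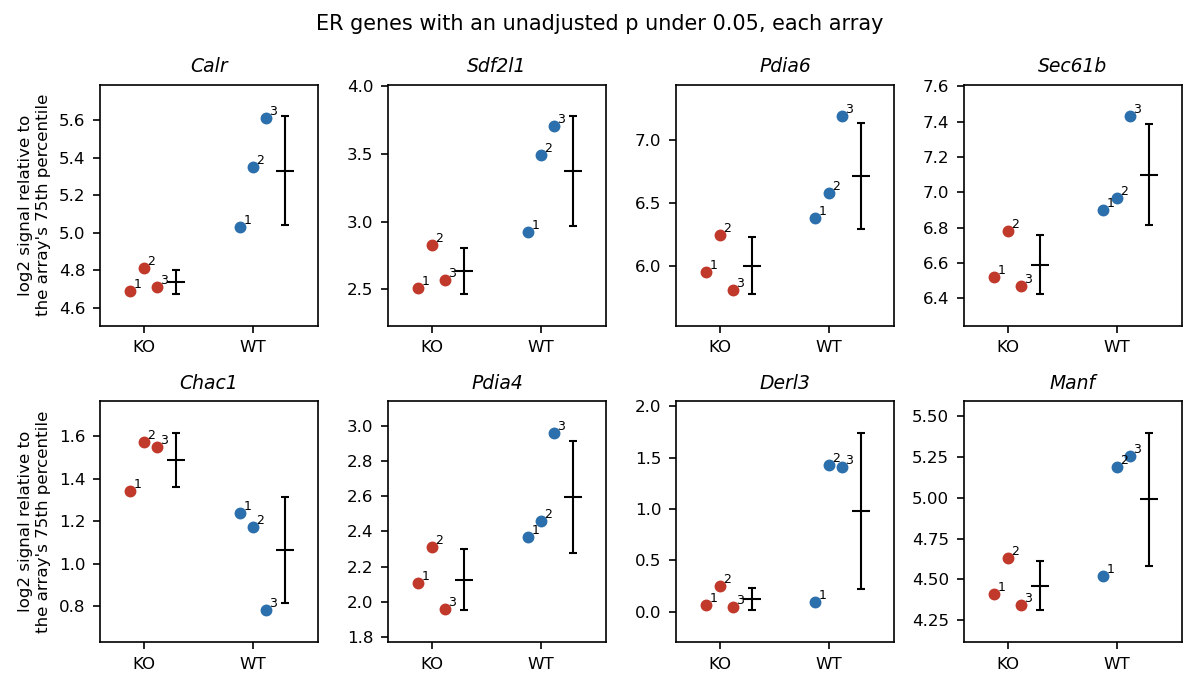
Log2 signal relative to the array's 75th percentile of the 8 ER genes with an unadjusted p under 0.05, on each of 3 KO (red) and 3 WT (blue) arrays, with replicate numbers; bars are mean ± SD, and each panel has its own axis. Of the WT arrays, replicate 1 lies nearest to the KO arrays for these genes, and among the KO values for Manf and Derl3.

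The 5 genes of translocation and signal peptide cleavage also lay below 0. Sec61b, a small subunit of the Sec61 channel, read 6.52, 6.78 and 6.47 on KO arrays, against 6.90, 6.97 and 7.43 on WT arrays. The groups did not overlap, with a log2 fold change of -0.51 ± 0.18 (70.3% of WT, unadjusted p = 0.0261 and adjusted p = 0.351 from limma), and its second probe gave -0.35 ± 0.18. With quantile normalization the difference was -0.26, and in the authors' value table -0.28. Sec61a1, the pore subunit, read 5.28, 5.48 and 5.30 on KO arrays, against 5.28, 5.49 and 5.73 on WT arrays. These groups overlapped almost wholly, the log2 fold change was -0.15 ± 0.15 (adjusted p = 0.671, limma), and it was 0.03 with quantile normalization and 0.01 in the authors' value table. Ssr1, a subunit of the translocon-associated protein complex, read 4.78, 5.01 and 4.61 on KO arrays, against 4.89, 4.92 and 5.41 on WT arrays. Its log2 fold change was -0.27 ± 0.19 (adjusted p = 0.542, limma), and its 2 dimmer probes gave -0.16 ± 0.15 and 0.07 ± 0.16. Sec11c and Spcs1, subunits of the signal peptidase, had log2 fold changes of -0.49 ± 0.22 and -0.20 ± 0.13 with overlapping groups. With quantile normalization they had -0.48 and 0, and in the authors' value table -0.46 and -0.04.

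The ER-associated degradation genes lay on both sides of 0. Herpud1 encodes Herp, a membrane protein that organises the degradation complex. Herpud1 read 4.03, 4.23 and 4.16 on KO arrays, against 3.79, 3.92 and 3.88 on WT arrays. Every KO array was above every WT array, the log2 fold change was 0.28 ± 0.12 (121% of WT), and the unadjusted p was 0.0521 and the adjusted p 0.390 from limma. Syvn1 encodes Hrd1, the ubiquitin ligase of the pathway, and read 4.15, 4.15 and 3.97 on KO arrays, against 3.92, 4.27 and 4.18 on WT arrays. Its log2 fold change of -0.03 ± 0.14 (95% interval -0.37 to 0.30, adjusted p = 0.929, limma) had no stable sign, being 0.03 with quantile normalization and 0.01 with median centring.

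Derl3, which encodes a Derlin of the degradation channel, was the degradation gene farthest from 0. Derl3 read 0.07, 0.25 and 0.05 on KO arrays, against 0.10, 1.43 and 1.41 on WT arrays. WT replicates 2 and 3 were more than 1 log2 unit above the other 4 arrays, while WT replicate 1 lay among the KO values. The log2 fold change was -0.86 ± 0.35 with an unadjusted p of 0.0460 and an adjusted p of 0.383 (limma), and the SD was 0.11 on KO arrays and 0.76 on WT arrays. Without WT replicate 1 the difference was -1.30. Derl1 and Derl2, the related Derlins, had -0.15 ± 0.13 and -0.13 ± 0.12. Sel1l, the adaptor of Hrd1, had 0.25 ± 0.14, and Edem1, a mannosidase-like protein that marks glycoproteins for degradation, had 0.04 ± 0.13.

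Of the 3 sensors and the 3 transcription factors, all but Ern1 lay above 0. Ern1 (Ire1) read 0.41, 0.85 and 0.48 on KO arrays, against 0.38, 0.36 and 1.31 on WT arrays. WT replicate 3 alone was high, and the log2 fold change was -0.10 ± 0.28 with all arrays but 0.21 without WT replicate 3 and 0.01 with normexp background correction (adjusted p = 0.884 with all arrays, limma). Eif2ak3 (Perk) read 1.56, 1.51 and 1.46 on KO arrays, against 1.18, 1.37 and 1.34 on WT arrays. All KO arrays were above all WT arrays, at a log2 fold change of 0.21 ± 0.12 (adjusted p = 0.469, limma). Atf6 had 0.43 ± 0.21 (adjusted p = 0.423, limma), with KO arrays between -0.19 and -0.08 and WT arrays at -0.90, -0.12 and -0.66.

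Xbp1, whose spliced form encodes the factor that drives chaperone and degradation genes, had nearly equal means. Xbp1 read 6.02, 6.29 and 6.04 on KO arrays, against 6.03, 6.28 and 6.03 on WT arrays, a log2 fold change of 0.01 ± 0.14 (95% interval -0.33 to 0.34, adjusted p = 0.988, limma). Whether its probe tells the spliced from the unspliced message was not tested. Ddit3 (Chop), a factor linked to cell death under lasting stress, read 0.65, 0.69 and 0.81 on KO arrays, against 0.54, 0.56 and 0.12 on WT arrays. The groups did not overlap, with a log2 fold change of 0.31 ± 0.16 (adjusted p = 0.434, limma). Atf4 had 0.30 ± 0.20 by its brighter and 0.33 ± 0.20 by its other probe.

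Among the targets of the Perk and Atf4 branch, Chac1 was the only 1 with an unadjusted p under 0.05. Chac1 encodes an enzyme that breaks down glutathione and is turned on through Atf4. Chac1 read 1.34, 1.57 and 1.55 on KO arrays, against 1.24, 1.17 and 0.78 on WT arrays. The groups did not overlap, the closest arrays being 0.10 apart, and the log2 fold change was 0.42 ± 0.16 (134% of WT, unadjusted p = 0.0370 and adjusted p = 0.370 from limma). Trib3, a pseudokinase that restrains Atf4 and Chop, read 0.26, 0.77 and 1.03 on KO arrays, against 0.89, 0.30 and 0.37 on WT arrays. Its arrays varied more within a group than between groups, at 0.17 ± 0.25 (adjusted p = 0.769, limma), and without KO replicate 3 the difference was 0. Asns (asparagine synthetase) read 4.22, 4.46 and 4.26 on KO arrays, against 4.10, 4.35 and 4.55 on WT arrays. Its log2 fold change of -0.02 ± 0.16 (adjusted p = 0.960, limma) lay above 0 with normexp, quantile normalization, median centring and the authors' value table. Ppp1r15a (Gadd34) and Ppp1r15b (Crep), which lead a phosphatase to undo the block of Perk on translation, had 0.03 ± 0.19 and 0.00 ± 0.15.

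**Figure D4:**
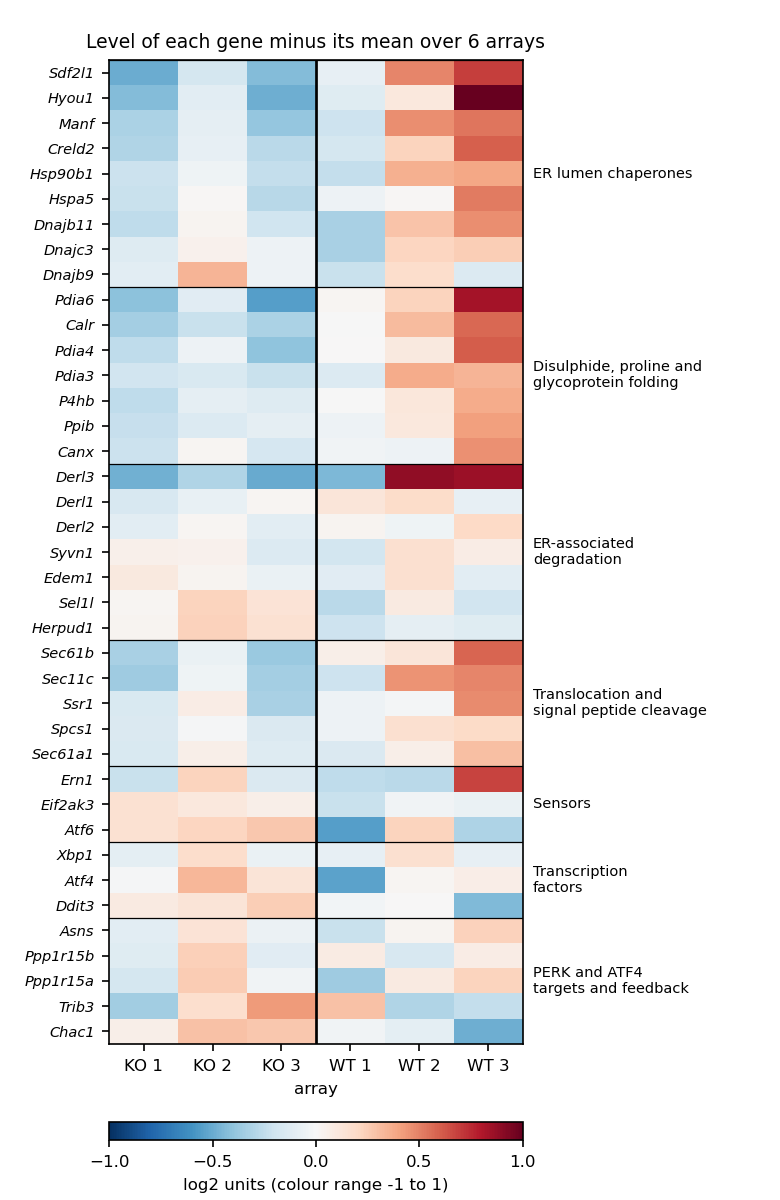
Level of each of the 39 ER genes on each array minus its mean over the 6 arrays, in log2 units, with KO arrays left of the line and WT arrays right of it; genes are grouped by role and ordered by fold change. In the folding and translocation roles KO arrays are mostly blue and WT replicate 3 is mostly the reddest. WT replicate 1 is close to the KO arrays, but above all of them for 6 of the 7 disulphide, proline and glycoprotein folding genes. It is above all of them for 1 of the 9 lumen chaperones and 1 of the 5 translocation genes.

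The folding genes varied together from array to array. Their mean level, with each gene centred over the 6 arrays, was -0.27, -0.05 and -0.27 on KO arrays, against -0.12, 0.22 and 0.50 on WT arrays. The groups overlapped here, since WT replicate 1 lay below KO replicate 2. Of the 16 folding genes, 15 were highest among the KO arrays on KO replicate 2 and 14 were highest of all on WT replicate 3. WT replicate 1 lay above all KO arrays for 7 of the 16, WT replicate 2 for 14 and WT replicate 3 for 15. Those 7 were 6 of the 7 disulphide, proline and glycoprotein folding genes and 1 of the 9 lumen chaperones. The mean of the disulphide, proline and glycoprotein folding genes was -0.03 on WT replicate 1, against -0.27, -0.11 and -0.27 on KO arrays. Over all 39 genes, 22 (56.4%) were highest on WT replicate 3, against 19.5% of all genes and features, and 12 (30.8%) were lowest on WT replicate 1, against 18.1% of all. The SD within WT was larger than that within KO for 34 of the 39 genes (87.2%, against 69.7% of all), with a median SD of 0.13 in KO and 0.29 in WT (over all genes and features, 0.15 in KO and 0.23 in WT). The median log2 fold change of the 16 folding genes was -0.36 with all arrays, -0.23 without WT replicate 3 (14 of 16 below 0) and -0.54 without WT replicate 1 (15 of 16 below 0). Quantile normalization gave -0.26 and the authors' value table gave -0.23, each with 15 of 16 below 0.

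Markers of some other cells also set WT replicate 3 apart, while other marker lists did not. All 5 neutrophil markers (S100a8, S100a9, Ngp, Camp and Ltf) were highest there, and their centred mean was -0.69, -1.07 and -0.37 on KO arrays, against -0.30, -0.06 and 2.50 on WT arrays. The 4 Schwann cell markers averaged -0.20, -0.10 and -0.25 on KO arrays, against -0.53, 0.17 and 0.91 on WT arrays. The 3 plasma and B cell markers averaged 0.06, 0.23 and -0.37 on KO arrays, against -0.17, 0.31 and -0.06 on WT arrays. They were not highest as a list on WT replicate 3, but the genes differed. Cd79a was highest of all arrays there (-2.80), Mzb1 was lowest there (-1.38), and Jchain read -2.96 there. The 4 fibroblast and pericyte markers averaged 0.05, -0.23 and -0.17 on KO arrays, against 0.17, 0.08 and 0.09 on WT arrays, and the 4 genes did not share a sign: the log2 fold change was -0.83 ± 0.23 for Col1a1, -0.52 ± 0.17 for Dcn, -0.18 ± 0.13 for Pdgfrb and 0.62 ± 0.24 for Rgs5 (limma's adjusted p 0.308, 0.339, 0.563 and 0.368). The 4 folliculostellate and stem cell markers averaged -0.02, -0.20 and -0.04 on KO arrays, against -0.13, 0.16 and 0.23 on WT arrays. These 4 genes differed in their order among WT arrays. S100b, with the widest range, read -1.29, -0.09 and 0.34 there, and Aldh1a2 read 2.62, 2.67 and 2.79. Sox2 read -0.05, -0.22 and -0.02, and Cyp2f2 read 5.64, 5.72 and 5.25. The 5 markers of all hormone cells averaged between -0.02 and 0.07 on KO arrays and between -0.06 and -0.02 on WT arrays. They did not share a sign, from -0.26 ± 0.21 for Cga to 0.28 ± 0.13 for Chga. The hormone genes Prl, Gh and Pomc had log2 fold changes of -0.26 ± 0.22, -0.22 ± 0.23 and -0.23 ± 0.22. Under the alternatives these ranged from -0.49 to 0.08, from -0.46 to 0.13 and from -0.46 to 0.09. Among WT arrays Prl, Gh, Pomc and Cga were all highest on replicate 1 and lowest on replicate 2. The 75th percentile used for scaling ran the other way, at 171.3, 313 and 193.2 on WT replicates 1, 2 and 3. The part of the scaling in these values was not tested. Lhb and Tshb had 0.03 ± 0.19 and 0.14 ± 0.14. The 2 somatotrope markers, of which Gh is 1, averaged -0.21, -0.15 and -0.10 on KO arrays, against 0.38, -0.10 and 0.18 on WT arrays. Other marker lists were not highest on WT replicate 3. Macrophage markers averaged -0.03 there, and endothelial and erythroid markers -0.05 each. Corticotrope and melanotrope markers averaged 0 there, gonadotrope markers -0.14 and the thyrotrope marker -0.18. Erythroid markers ranged from 0.81 on KO replicate 1 to -0.94 on KO replicate 2. The 4 posterior lobe markers did not share a sign. Avp had -1.21 ± 0.35, Nkx2-1 -0.14 ± 0.15, Oxt 0.03 ± 0.17 and Rax 0.53 ± 0.17. The part of these cell types in the values of the ER genes was not tested, beyond the values without WT replicate 3 above.

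**Figure D5:**
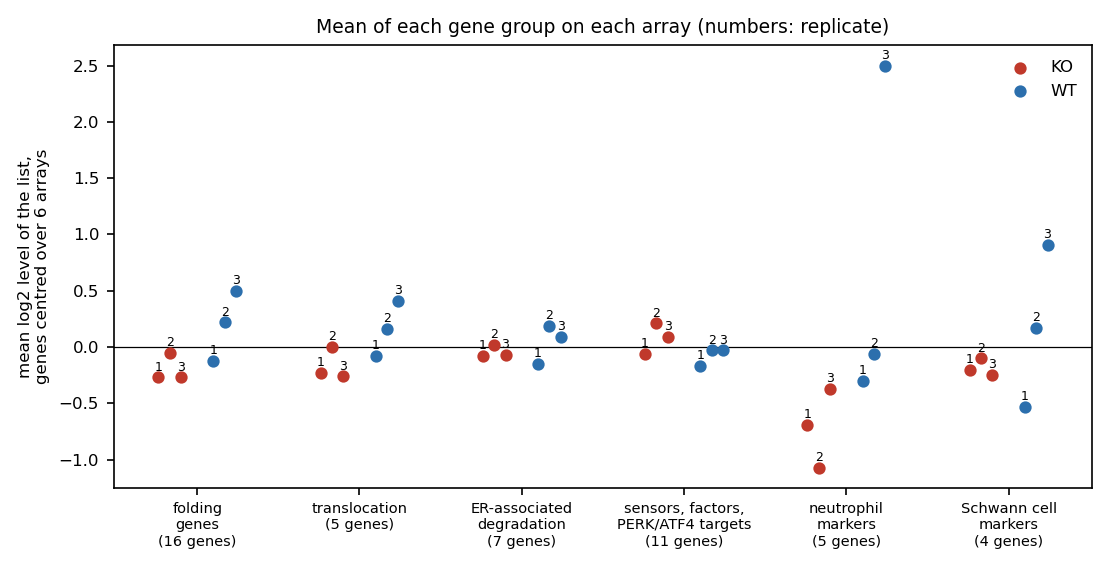
Mean log2 level of gene groups on each array, with every gene centred over the 6 arrays; red points are KO and blue points WT arrays, numbered by replicate. WT replicate 3 is the highest array for the folding genes (0.50), the translocation genes (0.41), the neutrophil markers (2.50) and the Schwann cell markers (0.91) among the groups drawn.

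A wider list of the same machinery was read beside the 39 genes: 132 other genes were tested (of 141 symbols listed, some of them older names of the same gene). Limma called 0 of them at an adjusted p under 0.05, and 17 (12.9%) stood at an unadjusted p under 0.05, against 12.8% of all genes and features. Of these 17, 12 were lower in KO and 5 higher, and the median log2 fold change was -0.09. The shares are close to those of all genes, so the wider list did not stand out as a whole. By role, the 18 genes of the glycoprotein cycle and oligosaccharyltransferase had a median of -0.24 (14 below 0), the 20 translocation genes of -0.19 (15 below 0) and the 22 disulphide and proline enzymes of -0.13 (18 below 0). The 21 other ER-associated degradation genes had a median of -0.04 (13 below 0), and the KO arrays lay wholly below the WT arrays for 6 of them (28.6%, against 13.5% of all genes and features). The 41 other stress response genes had a median of 0.02 and the 10 other chaperones of 0.02. For 8 of the 41 (19.5%, against 7.14% of all genes and features) the KO arrays lay wholly above the WT arrays. They lay wholly below for 1 (2.44%, against 13.5% of all). At an unadjusted p under 0.05 stood 12.2% of the 41, against 12.8% of all.

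The 17 genes of the wider list at an unadjusted p under 0.05 are given here for completeness, since their share (12.9%) was close to that of all (12.8%). Ssr2 and Ssr4, partners of Ssr1, stood at -0.75 ± 0.22 and -0.53 ± 0.21 on the log2 fold change scale (limma's adjusted p 0.317 and 0.373), and Sec61g, the third Sec61 subunit, had -0.40 ± 0.17 (adjusted p = 0.388, limma). Srp9, of the signal recognition particle, had -0.36 ± 0.15. Ddost, Magt1 and Krtcap2, of the oligosaccharyltransferase that attaches sugars to entering proteins, had -0.53 ± 0.21, -0.42 ± 0.18 and -0.43 ± 0.14. Fkbp11, a proline isomerase of secretory cells, was farthest from 0: it read -2.59, -2.89 and -3.12 on KO arrays, against -2.19, -1.72 and -1.10 on WT arrays, without overlap, at -1.20 ± 0.29 (adjusted p = 0.260, limma). This value depended on the processing, since normexp gave -0.69 and the authors' value table gave -0.56. Vkorc1, which reduces vitamin K in the ER, and Selenok, an ER selenoprotein, had -0.59 ± 0.18 and -0.32 ± 0.13. Bcl2l11 and Casp12, linked to cell death, had -0.71 ± 0.29 and -0.67 ± 0.26, but were well above background on 5 and 4 of the 6 arrays. On the higher side stood the chaperone genes Dnajc1 (0.41 ± 0.17) and Cdnf, a relative of Manf (0.54 ± 0.19), the ER-bound factor Creb3l2 (0.53 ± 0.16), the kinase Eif2ak2 (0.49 ± 0.18) and the stress gene Gadd45a (0.40 ± 0.14), with adjusted p from 0.312 to 0.383 (limma). Several of these values shrank with other processing. In the authors' value table Ssr4 read -0.32, Sec61g -0.20, Ddost -0.35, Krtcap2 -0.25, Vkorc1 -0.39, Selenok -0.14 and Cdnf 0.26. With normexp Bcl2l11 and Casp12 each read -0.28 and Cdnf 0.19, and the mean of its probes gave -0.21 for Srp9. Without WT replicate 1 Dnajc1 read 0.27 and Eif2ak2 0.29, without WT replicate 2 Bcl2l11 read -0.44, and without WT replicate 3 Sec61g read -0.26.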

How the data were processed

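Pituitary RNA of 3 KO and 3 WT females was labelled with Cy3, per the labels. The 6 arrays shared 1 slide and 1 scan, and the spots were quantified with Agilent Feature Extraction 11.0.1.1, per the file headers. The deposited intensity values (gProcessedSignal) were background-subtracted and detrended by that program, per the file headers, and not normalized between arrays. The authors' value table holds log2 values, and the submitters' processing notes name limma; how it was normalized is not given there. Its columns have medians of 8.25 to 8.26. Spot flags (other) were used as deposited.

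Control and outlier spots were left out, spots of a probe averaged as log2, and each array's 75th percentile subtracted. A probe was used where 3 or more arrays had it well above background (36739 of 55681), and the brightest probe stood for a gene. Symbols came from RefSeq (GRCm38.p6) through the probe's accession. The test of KO against WT was two-sided limma (version 3.58.1, lmFit and eBayes, in R 4.3.3 with data.table, version 1.17.8), adjusted by Benjamini-Hochberg over 26887 genes and features, of which 16461 had a symbol. Of these steps only the limma fit was tested on simulated data, with planted shifts larger than any log2 fold change of the ER genes. That test does not show how well differences of the size seen here are found. Genes with every array's value were those at an unadjusted p under 0.05 and the best-known of each role. The members, the lists and the alternatives (background, scaling, the authors' table, filters, probes, variance, blocks, arrays left out) were chosen with earlier results of these data known.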

Additional observations from a re-analysis of the deposited data

How the results depend on the processing

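Under the 16 alternatives 0 of the 39 ER genes were called, also at an adjusted p under 0.1 (lowest adjusted p 0.143, without WT replicate 1). Of 624 values of single genes, 593 kept their sign and 31 turned. Many of these signs could not turn. The filters, the variance trend and the blocks left the log2 fold change of every ER gene as reported. The mean of a gene's probes could change only the 7 genes with more than 1 kept probe. Genes and features called numbered 0 in the comparison as reported, 24 with normexp, 27 with the authors' value table, 11 with probes well above background on all arrays, 27 with a variance trend and robust fitting, and 0 to 1 with an array left out (1 without WT replicate 1). ER genes at an unadjusted p under 0.05 numbered 8 as reported, 4 without a filter on dim probes, 15 with the variance trend, 7 with a replicate block, 6 with the slide row as a block, 8 with each probe alone (chosen after seeing the data), and 2 to 16 with an array left out. The share of all genes and features was 12.8% as reported, 11.4% without the filter and 14.3% with the variance trend. It was 10.7% with the replicate block, 10.9% with the slide row block, and 7.32% to 20.5% with an array left out. Same-numbered KO and WT arrays deviated from their group means with correlations of 0.15, -0.18 and -0.08. Differently numbered arrays gave -0.14 to 0.21. With 3 arrays a group, whose deviations sum to 0, these values cannot tell whether samples were paired. With the replicate block 0 genes and features were called, as without it. The median of the 16 folding genes was -0.36 as reported, -0.30 with normexp, -0.31 with median centring, -0.26 with quantile normalization and -0.23 in the authors' value table. Within slide row 1 (2 KO and 2 WT arrays) it was -0.45, and within row 2 (1 and 1) it was -0.25, against -0.07 and -0.04 for all genes and features.

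Signs turned for genes near 0, and the cause was not tested. With normexp these were Ern1 (0.01), Asns (0.04) and Ppp1r15b (-0.11); with quantile normalization Syvn1 (0.03), Sec61a1 (0.03) and Asns (0.08); with median centring Syvn1 (0.01) and Asns (0.02); with the authors' value table Edem1 (-0.02), Syvn1 (0.03), Sec61a1 (0.01) and Asns (0.09). With an array left out the ranges were -0.01 to 0.24 for Dnajb9, -0.27 to 0.01 for Dnajc3, -0.01 to 0.13 for Edem1, -0.13 to 0.04 for Syvn1, -0.26 to 0.21 for Ern1, -0.08 to 0.09 for Xbp1, 0 to 0.38 for Trib3, -0.14 to 0.09 for Asns, -0.14 to 0.14 for Ppp1r15a and -0.12 to 0.06 for Ppp1r15b.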

Other observations

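Outside the 39 ER genes, 38 genes hold one of the 2 ER stress elements in their promoter window, and 18 of these were tested. Their log2 fold changes lay below 0 for 9 and above 0 for 9, with a median of -0.05, and limma called 0 of them. The 11 ER genes with an element lay below 0 for 10, with a median of -0.32. Folding genes whose window held neither element were also mostly below 0. Sdf2l1 had -0.73 ± 0.22, Pdia4 -0.47 ± 0.19, Pdia3 -0.38 ± 0.17, P4hb -0.31 ± 0.14, Ppib -0.31 ± 0.15 and Dnajb9 0.12 ± 0.18. Whether the element has a part in these values was not tested. Among the other holders of an element, Krtcap2, a subunit of the oligosaccharyltransferase, had a log2 fold change of -0.43 ± 0.14, while Nucb1, a calcium-binding protein of the Golgi, had 0.29 ± 0.19, Alg12, a mannosyltransferase of the ER, had 0.15 ± 0.15, and Ero1b, an oxidase that drives disulphide formation, had 0.08 ± 0.22. Of the 397 other tested genes with the Atf4 element, 228 lay below 0 (median -0.05), against 1 of the 4 ER genes that hold it (median 0.22).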
